A study of Mus musculus with 6 samples.

Results

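Notch signalling passes information between touching cells. A ligand of the Jagged or Delta-like family on one cell binds a Notch receptor on its neighbour, the receptor is cut first by an ADAM sheddase and then by gamma-secretase, and the freed intracellular domain joins the DNA-binding protein RBPJ in the nucleus to switch on repressor genes of the Hes and Hey families. In cartilage the pathway is known for restraining chondrocyte differentiation and for being active in osteoarthritic joints. Described here are 10 genes of that pathway, chosen by symbol: the receptors Notch1, Notch2, Notch3 and Notch4, the ligands Jag1, Jag2 and Dll1, and the targets Hes1, Hey1 and Heyl. All 10 were among the 24346 gene symbols of the deposited table.

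The material was primary articular chondrocytes of ICR mice, taken on postnatal day 4. In 3 RNA-seq libraries the cells had been given semaphorin 4D (Sema4D), a ligand of plexin-B receptors, and the other 3 were controls; the labels name no genetic change in either group. For dose and duration of stimulation, nothing is given in the sources used here. Nothing tells whether the 3 libraries of a group are separate cultures or mice, and each p-value therefore reflects the scatter of these libraries, possibly technical alone. Values are FPKM, by definition fragment numbers scaled by transcript length and by the fragments of the library, so that levels of different genes can be set side by side. How the library total was counted is not given in the sources used here.

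Of the 10 genes, 4 reached the mean of 1 FPKM over the 6 libraries that was set for testing, and all 4 differed between the groups. The ligand gene Jag1 rose and the receptor gene Notch2 rose in Sema4D libraries, whereas the receptor gene Notch1 and the target gene Hes1 fell. The other 6 genes, Notch3, Notch4, Jag2, Dll1, Hey1 and Heyl, averaged under 1 FPKM. The calls have to be read against the whole table: with limma on log2(FPKM + 1) and an adjusted p under 0.05, 46.7% of 11603 tested genes were called, 24.5% higher and 22.2% lower in Sema4D libraries. Of all calls 52.4% were higher as deposited, 38.8% after quantile normalization and 34.5% after rescaling each library to a common FPKM sum, so that split depends on the scaling. The directions of Jag1, Notch2, Notch1 and Hes1 were the same in every setting that tested them.

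Depth was estimated from the steps between low FPKM values at 1.41e+07 to 1.66e+07 fragments in Sema4D libraries and 1.26e+07 to 1.62e+07 in control libraries. Summed FPKM were 518901 to 527492 in Sema4D and 492708 to 494123 in control libraries. Over the tested genes, themselves not replicates, on the log2 scale, pairs of libraries of the same group had a Pearson's r of 0.983 to 0.991 and pairs of different groups one of 0.935 to 0.942. All 8 listed marker genes of chondrocytes were present, and they were not used to tell articular from other chondrocytes. Their summed level was 11400 to 12331 FPKM in Sema4D and 14170 to 15298 FPKM in control libraries. All 8 of them fell, Sox9 among them (log2 fold change -0.87, limma adjusted p = 2.32e-06), where 22.2% of all tested genes were lower. The part of these 8 markers in the Notch results was not tested.

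The promoters of the 3 tested genes with an entry in RefSeq's GRCm38.p6 table are shown because these genes moved in different directions. Each window runs from 250 bases before the annotated start of the gene to 50 bases after it, on the gene's own strand. Capitals mark matches, on either strand, to any of 6 motifs searched, which were TGGGAA (the core bound by RBPJ), GGGCGG (the GC box), TGANTCA (AP-1), CACGTG (the E box), CACNAG (the N box bound by HES proteins) and the NF-kappaB consensus.
Notch1, chr2:26503773-26504072, minus strand: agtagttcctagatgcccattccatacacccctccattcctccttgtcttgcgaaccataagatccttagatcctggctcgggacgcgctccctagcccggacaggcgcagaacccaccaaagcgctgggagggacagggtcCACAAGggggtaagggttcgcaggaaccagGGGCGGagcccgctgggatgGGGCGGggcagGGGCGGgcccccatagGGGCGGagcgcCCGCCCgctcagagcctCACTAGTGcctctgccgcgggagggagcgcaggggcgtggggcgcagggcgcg
Notch2, chr3:98013288-98013587, plus strand: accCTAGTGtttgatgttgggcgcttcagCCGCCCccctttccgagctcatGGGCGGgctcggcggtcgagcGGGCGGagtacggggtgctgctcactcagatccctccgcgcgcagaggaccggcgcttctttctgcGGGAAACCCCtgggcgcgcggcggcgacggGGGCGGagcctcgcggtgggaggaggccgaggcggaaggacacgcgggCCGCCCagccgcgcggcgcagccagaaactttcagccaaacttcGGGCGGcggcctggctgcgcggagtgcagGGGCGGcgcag
Jag1, chr2:137116471-137116770, minus strand: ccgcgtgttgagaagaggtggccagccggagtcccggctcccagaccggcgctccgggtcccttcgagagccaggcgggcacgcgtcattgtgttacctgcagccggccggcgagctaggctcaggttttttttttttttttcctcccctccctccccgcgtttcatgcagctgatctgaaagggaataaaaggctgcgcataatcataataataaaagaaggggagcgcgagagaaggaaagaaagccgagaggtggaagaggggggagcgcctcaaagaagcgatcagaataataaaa

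The Notch1 and Notch2 windows were GC-rich, at 68.3% and 73.0% G or C, against a median of 52.7% over 32841 promoter windows, and the Jag1 window held 55.7%. Notch1 had 5 GC boxes and 3 N boxes, of which 2 overlap on opposite strands. Notch2 had 7 GC boxes, 1 N box and, 112 bases before the start, 1 NF-kappaB consensus match that reads on both strands. None of the 6 motifs was found in the Jag1 window. Of all windows, 35.7% held a GC box, 42.5% an N box, 8.46% the NF-kappaB consensus, 25.6% TGGGAA, 7.81% TGANTCA and 7.15% CACGTG. No TGGGAA lies in these 3 windows. A match is a string of letters, and its absence says only that these letters are not in this window. Windows were also listed for Notch3, Notch4, Jag2 and Dll1, whereas Hes1, Hey1 and Heyl had no entry.

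Among receptors, Notch2 was the most abundant in every library. Notch2, a receptor that acts in skeletal development (chromosome 3, 98013538 to 98150367 in GRCm38.p6, the assembly of mm10), had 24.2, 23.7 and 23.8 FPKM in the Sema4D libraries, against 17.2, 18.8 and 18.4 FPKM in the control libraries. Every Sema4D library lay above every control library. The mean was 23.9 ± 0.257 FPKM in Sema4D and 18.2 ± 0.840 FPKM in control libraries (SD, n = 3 each), a log2 fold change of 0.38 (SE 0.041, limma adjusted p = 0.000113). The ratio of the means was 1.32.

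Notch1, a receptor whose deletion is lethal in mouse embryos (chromosome 2, 26457902 to 26503822), moved the other way. It had 3.27, 2.85 and 3.08 FPKM in the Sema4D libraries, against 4.58, 4.90 and 4.73 FPKM in the control libraries. The highest Sema4D library was below the lowest control library. The mean fell to 3.06 ± 0.212 FPKM with Sema4D, against 4.74 ± 0.161 FPKM in control (SD, n = 3 each), a log2 fold change of -0.50 (SE 0.061, limma adjusted p = 0.00024). A long non-coding gene, 0610009E02Rik, overlaps Notch1 on the opposite strand, and since the strand setting was not given in the sources used here, its reads cannot be told apart from those of Notch1. Long non-coding genes also overlap Notch2 (Gm40103) and Notch3 (Gm38585 and Gm41568), and LOC115489673 overlaps Hey1, so the same limit may hold for them.

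Notch3, a receptor best known from vascular smooth muscle (chromosome 17, 32120820 to 32166896), had 0.932, 0.946 and 1.09 FPKM in the Sema4D libraries, against 1.03, 0.871 and 0.815 FPKM in the control libraries. The groups overlapped, and its mean over all 6 libraries, 0.948 FPKM, was just under the filter. Tested with no filter, its log2 fold change was 0.06 (limma adjusted p = 0.516). Notch4, a receptor of blood vessel endothelium (chromosome 17, 34564286 to 34588543), had 0.0347, 0.0837 and 0.0205 FPKM in the Sema4D libraries, against 0.0231, 0.0268 and 0.0093 FPKM in the control libraries. On its longest annotated transcript these values stand for about 1.91 to 8.61 fragments in a Sema4D library and 0.956 to 2.86 in a control library. With no filter Notch4 did not pass (log2 fold change 0.04, limma adjusted p = 0.415). With a pseudocount of 0.1 as well, its log2 fold change was 0.27 and did not pass either (limma adjusted p = 0.376). At so few fragments, a change in Notch4 cannot be told from none.

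Because Notch2 was higher and Notch1 lower, the make-up of the receptor transcripts differed. Notch2 held 85.1%, 85.9% and 85.0% of the summed receptor FPKM in the Sema4D libraries and 75.3%, 76.4% and 76.8% in the control libraries. Notch1 held 10.3% to 11.5% in Sema4D libraries and 19.7% to 20.1% in control libraries. The ratio of Notch2 to Notch1 was accordingly 7.39, 8.32 and 7.74 in Sema4D libraries, against 3.75, 3.84 and 3.90 in control libraries. The summed receptor level was 27.5 to 28.4 FPKM in Sema4D and 22.8 to 24.6 FPKM in control libraries. Both the shares and the sums fell in ranges that did not overlap between the groups, and as they follow from the values of Notch1 and Notch2 they were given no test.

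**Figure D1:**
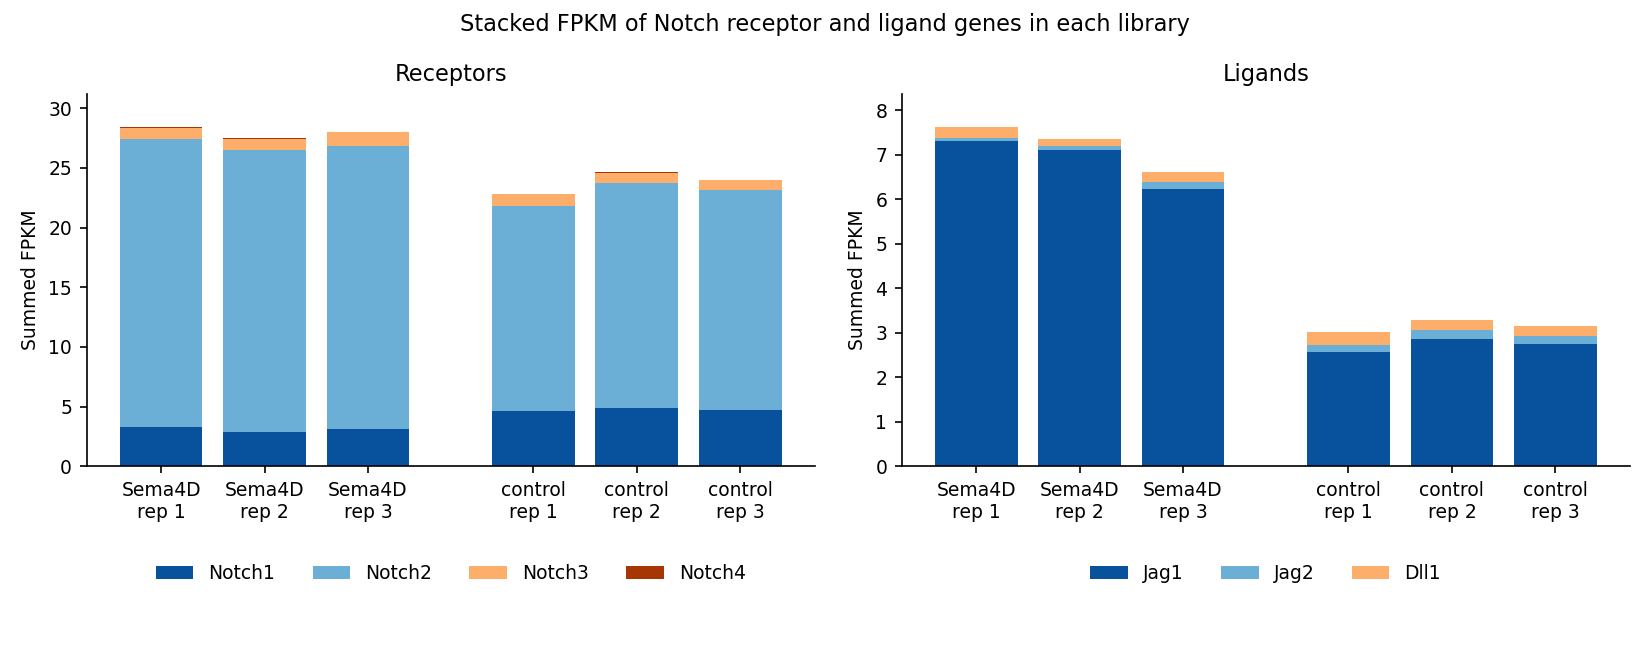
Stacked FPKM of the 4 receptor genes (left) and the 3 ligand genes (right) in each of the 3 Sema4D and 3 control libraries, with the y axis in summed FPKM; Notch4 is too low to be seen in most bars. Notch2 fills 85.0% to 85.9% of the receptor bar in Sema4D and 75.3% to 76.8% in control libraries, and Jag1 fills most of every ligand bar.

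Of the ligands, Jag1 showed the largest change of the 4 tested genes. Jag1 encodes Jagged-1, the ligand mutated in Alagille syndrome in humans (chromosome 2, 137081451 to 137116520). It had 7.30, 7.11 and 6.22 FPKM in the Sema4D libraries, against 2.56, 2.87 and 2.75 FPKM in the control libraries. All Sema4D values were more than the highest control value. The mean was 6.88 ± 0.572 FPKM in Sema4D and 2.72 ± 0.155 FPKM in control libraries (SD, n = 3 each), a ratio of 2.52 and a log2 fold change of 1.08 (SE 0.069, limma adjusted p = 4.65e-06).

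The other ligands were scarce. Jag2, the other Jagged ligand (chromosome 12, 112907803 to 112929812), had 0.0722, 0.0929 and 0.154 FPKM in the Sema4D libraries, against 0.173, 0.193 and 0.186 FPKM in the control libraries. Its groups did not overlap, but the values rest on about 6.12 to 11.1 fragments in a Sema4D library and 11.1 to 16.0 in a control library, and with no filter and a pseudocount of 0.1 its log2 fold change of -0.48 did not pass (limma adjusted p = 0.105). Dll1, a Delta-like ligand (chromosome 17, 15367354 to 15376932), had 0.241, 0.148 and 0.224 FPKM in the Sema4D libraries, against 0.276, 0.231 and 0.222 FPKM in the control libraries, and the groups overlapped. Jag1 held 94.3% to 96.7% of the FPKM summed over these 3 ligands in Sema4D libraries and 85.1% to 87.1% in control libraries.

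Among targets, Hes1 fell. Hes1 encodes a basic helix-loop-helix repressor that is the classic direct target of Notch in many tissues (chromosome 16, 30065357 to 30067796). It had 1.25, 1.44 and 1.22 FPKM in the Sema4D libraries, against 3.40, 2.72 and 2.98 FPKM in the control libraries. The highest Sema4D library stood below the lowest control library. The mean was 1.31 ± 0.120 FPKM in Sema4D and 3.03 ± 0.343 FPKM in control libraries (SD, n = 3 each), a log2 fold change of -0.81 (SE 0.085, limma adjusted p = 9.56e-05). The ratio of mean FPKM, Sema4D over control, was 0.430, and with a pseudocount of 0.1 the log2 fold change was -1.15, since the larger pseudocount understates changes of low genes. These values rest on about 25.2 to 33.0 fragments in a Sema4D library and 62.9 to 68.2 in a control library.

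Hey1 and Heyl encode related repressors. Hey1 (chromosome 3, 8663359 to 8667038) had 0.612, 0.597 and 0.560 FPKM in the Sema4D libraries, against 0.853, 0.545 and 0.895 FPKM in the control libraries. Control replicate 2 lay below all Sema4D libraries and the other control libraries above them, so the groups overlapped, and with no filter the log2 fold change of -0.14 did not pass (limma adjusted p = 0.243). Heyl (chromosome 4, 123233556 to 123249870) was at 0.0128, 0.0275 and 0.0152 FPKM in the Sema4D libraries; control replicates 1 and 2 were listed at 0 and control replicate 3 at 0.0413 FPKM, which amounts to at most about 2.92 fragments in any library.

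**Figure D2:**
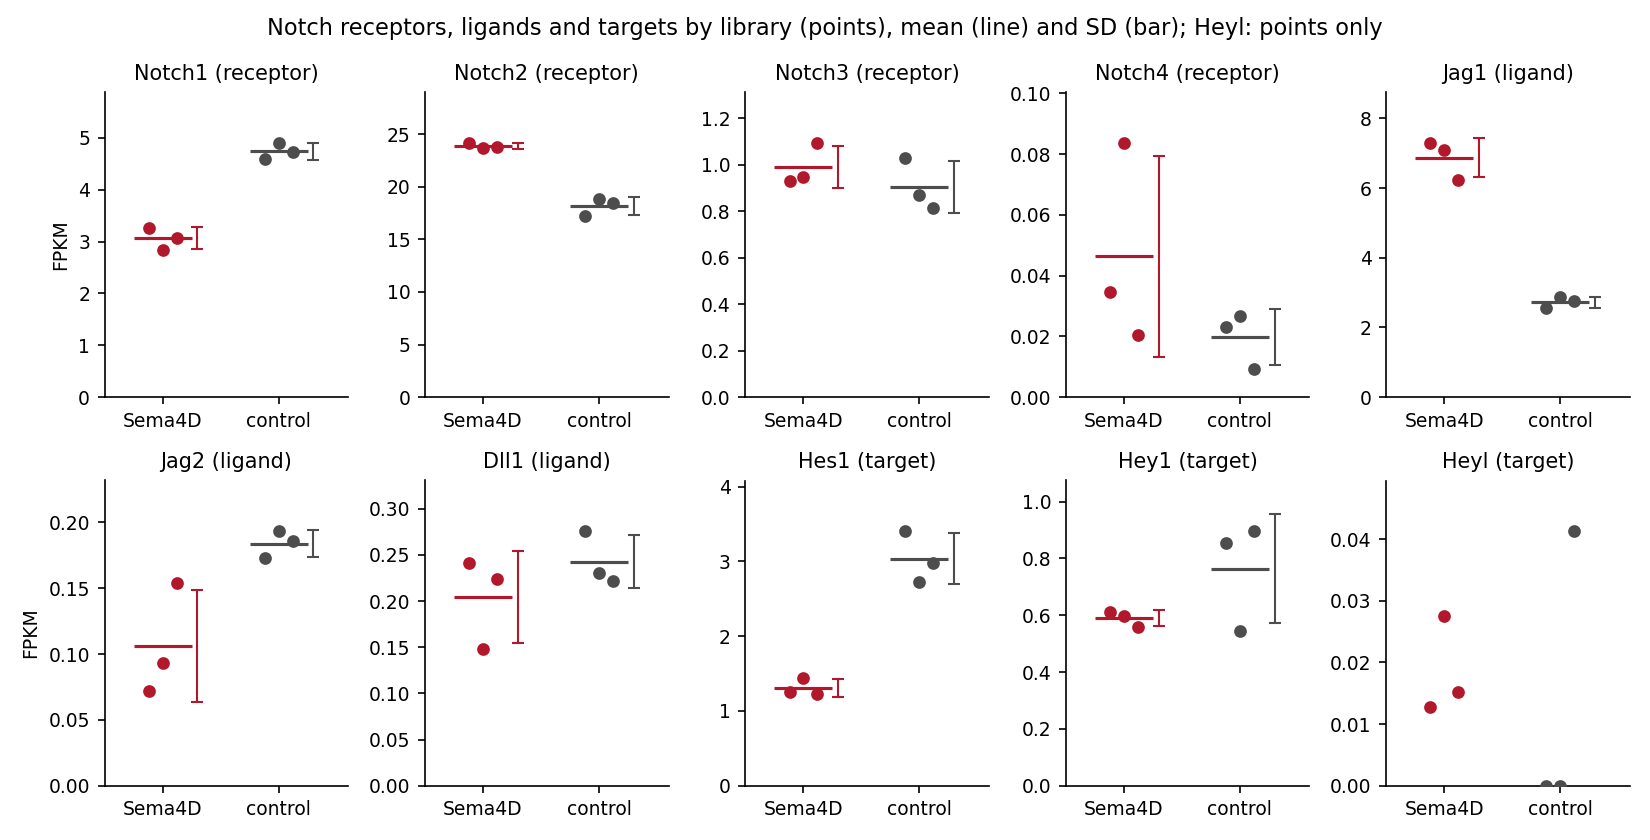
FPKM of each of the 10 genes in the 3 Sema4D and 3 control libraries, 1 panel per gene with its own y axis from 0; points are libraries, lines are means and bars are SD (n = 3), with points only for Heyl, which was listed at 0 in 2 control libraries. The groups separate for Notch1, Notch2, Jag1, Jag2 and Hes1 and overlap for Notch3, Notch4, Dll1, Hey1 and Heyl.

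In all, the groups did not overlap for 5 of the 10 genes, against 45.1% of the 17461 symbols above 0 in any library, so that count is near the background. Among tested genes, where all 4 of the Notch genes tested separated, the share was 56.6%. None of the 6 genes under the filter passed limma with no filter, where 33.2% of symbols were called, or with a pseudocount of 0.1 as well, where 32.9% were; 1 of the 6, Jag2, had an unadjusted p under 0.05 in each fit. The order of levels also differed. In Sema4D libraries it ran Notch2, Jag1, Notch1, Hes1, Notch3, Hey1, Dll1, Jag2, Notch4 and Heyl, and only neighbours from Dll1 downward overlapped. In control libraries it ran Notch2, Notch1, Hes1, Jag1, Notch3, Hey1, Dll1, Jag2, Notch4 and Heyl, where Hes1 overlapped Jag1, Notch3 overlapped Hey1 and Notch4 overlapped Heyl. Jag1 thus stood above Notch1 in every Sema4D library, at 2.02 to 2.50 times its FPKM, and below it in every control library, at 0.558 to 0.584 times. Against all symbols, the mean of Jag1 lay at or above 69.1% of them in Sema4D and 59.3% in control libraries, and that of Notch2 at or above 86.9% in Sema4D and 84.0% in control libraries. The mean of Notch1 lay at or above 60.1% in Sema4D and 64.9% in control libraries, and that of Hes1 at or above 54.1% in Sema4D and 60.2% in control libraries.

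The remaining machinery of the pathway was read from 9 lists of 67 genes, of which 51 were tested. With Sema4D 16 of them were higher (31.4%, against 24.5% of all tested genes), 11 were lower (21.6%, against 22.2%) and 24 did not pass, so 52.9% were called, against 46.7% of all tested genes. The median log2 fold change was 0.00, against 0.01 over all tested genes. Rescaling to a common FPKM sum gave 12 higher and 17 lower. Of the 27 calls, 19 held in every setting that tested them and 8 were lost in at least 1.

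Of 3 tested sheddase and convertase genes 2 were higher (66.7%, against 24.5% of all tested genes). After quantile normalization or rescaling to a common FPKM sum it was 1 of the 3. Of the sheddases, Adam17, which also frees tumour necrosis factor from the cell surface, had 47.3, 47.0 and 45.7 FPKM in the Sema4D libraries, against 19.5, 18.7 and 19.7 FPKM in the control libraries. These groups lay far apart relative to their spread (log2 fold change 1.23, SE 0.035, limma adjusted p = 3.21e-08). Adam10, the main Notch sheddase, differed little, at 29.3 ± 0.507 FPKM in Sema4D and 27.1 ± 0.888 FPKM in control libraries (SD, n = 3 each; log2 fold change 0.11, limma adjusted p = 0.0358). That call was lost in 8 settings, among them each without 1 of the Sema4D libraries, and the adjusted p reached 0.578. Furin, the convertase that cuts the receptor on its way to the surface, had a log2 fold change of -0.01 and did not pass (limma adjusted p = 0.926).

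Gamma-secretase is the membrane protease complex that makes the last cut in the receptor. Of 6 tested genes 4 were higher and 1 lower (66.7% and 16.7%, against 24.5% and 22.2% of all tested genes). Psen2, which encodes a catalytic subunit, averaged 13.3 ± 0.687 FPKM in Sema4D and 9.70 ± 0.797 FPKM in control libraries (SD, n = 3 each; log2 fold change 0.42, limma adjusted p = 0.000808). Aph1b, which encodes a scaffold subunit, fell (-0.28, adjusted p = 0.0155, or 0.0508 without control replicate 1). The rises of Aph1a (0.14) and Ncstn (0.09) were small and were lost under quantile normalization and rescaling, where 2 of the 4 rises remained.

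In the nucleus, Rbpj, which encodes the DNA-binding partner of the Notch intracellular domain, had 52.8, 54.8 and 53.5 FPKM in the Sema4D libraries, against 38.9, 39.5 and 39.2 FPKM in the control libraries. The groups were separated by far more than the spread within either (log2 fold change 0.44, SE 0.029, limma adjusted p = 5.34e-06). Maml1, a Mastermind coactivator, rose by 0.22 on the log2 scale (adjusted p = 0.00137), and the other 5 tested genes of this list did not pass. That made 28.6% of the list higher, against 24.5% of all tested genes. Of 11 genes of RBPJ corepressor complexes, 3 rose and 5 fell (27.3% and 45.5%, against 24.5% and 22.2% of all tested genes). Fhl1, which has an isoform that binds RBPJ that gene-level values cannot single out, fell (-0.32, adjusted p = 2.73e-05), as did the deacetylase gene Hdac1 (-0.18, adjusted p = 0.00123), while Ctbp1 rose (0.21, adjusted p = 0.000505). The 5 falls were 3 without Sema4D replicate 1 or 2 or without control replicate 2 or 3.

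Ubiquitin ligases and inhibitors acting on the receptor gave 2 rises and 2 falls among 10 tested genes. At 20% each, these shares were near the 24.5% and 22.2% of all tested genes. Dtx3l, a ligase of the Deltex family that pairs with PARP9, averaged 5.69 ± 0.927 FPKM in Sema4D and 2.04 ± 0.127 FPKM in control libraries (SD, n = 3 each; log2 fold change 1.13, limma adjusted p = 3.31e-05). Dtx4 rose less (0.38, adjusted p = 0.00662) and Egfl7, a secreted protein gene of endothelium that can bind Notch, fell (-0.30, adjusted p = 0.0107). The other fall, Dtx3 (-0.12, adjusted p = 0.043), was lost in 8 settings, among them each without 1 of the Sema4D libraries. Numb, Numbl, Itch and Fbxw7, which limit the receptor or its freed domain, did not pass.

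None of the 4 tested enzymes that place sugars on the receptor passed limma, where 46.7% of all tested genes did. None of the 4 tested genes for ubiquitination and endocytosis of ligands passed either. At an unadjusted p under 0.05 the counts were 0 and 2. The 2 were Epn2, an endocytic adaptor gene (log2 fold change 0.17, limma adjusted p = 0.0509), which passed in 4 alternative settings, and Mib2, a ligase gene (-0.11, limma adjusted p = 0.0849), which passed in 3. With no filter on low values 4 of the 16 pathway genes left out before passed, in a fit that called 33.2% of all symbols. Of the 16, 2 were at 0 in every library. The 4 are named here after their values were seen. Lfng, the Fringe glycosyltransferase that changes which ligands a receptor answers to, had 0.750, 0.488 and 0.634 FPKM in Sema4D libraries and 0.820, 1.41 and 1.58 FPKM in control libraries (limma adjusted p = 0.0386). Neurl1a, a ligase acting on ligands, had 0.871, 1.15 and 1.27 FPKM in Sema4D libraries and 0.426, 0.395 and 0.565 FPKM in control libraries (limma adjusted p = 0.00373). The others were Maml3 (log2 fold change 0.26) and Neurl1b (-0.19, limma adjusted p = 0.0487). With a pseudocount of 0.1 as well, Neurl1b no longer passed (limma adjusted p = 0.104), while Lfng, Neurl1a and Maml3 did.

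Further ligands and targets did not all follow Jag1 and Hes1. The atypical ligand genes Dlk1 and Dlk2, the 2 tested genes of their list, both fell, where 22.2% of all tested genes were lower. Dlk2 averaged 2.10 ± 0.174 FPKM in Sema4D and 3.85 ± 0.288 FPKM in control libraries (SD, n = 3 each; log2 fold change -0.65, limma adjusted p = 0.000149), and Dlk1 averaged 43.0 ± 1.92 FPKM in Sema4D and 49.8 ± 0.241 FPKM in control libraries (-0.21, adjusted p = 0.00189). Of the 4 tested genes on the list of other targets, the cyclin gene Ccnd1 fell (-0.65, limma adjusted p = 3.47e-06). Myc (0.38, adjusted p = 0.000204), Cdkn1a (0.21, adjusted p = 0.00279) and Hes6 (0.20, adjusted p = 0.00377) rose. That made 75% higher and 25% lower, against 24.5% and 22.2% of all tested genes. Ccnd1, Myc and Cdkn1a are also targets of many other pathways, and Hes6 encodes a protein that opposes HES1. These shares therefore do not measure Notch activity. Hes5 and Dll4 were listed at 0 in all 6 libraries.

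**Figure D3:**
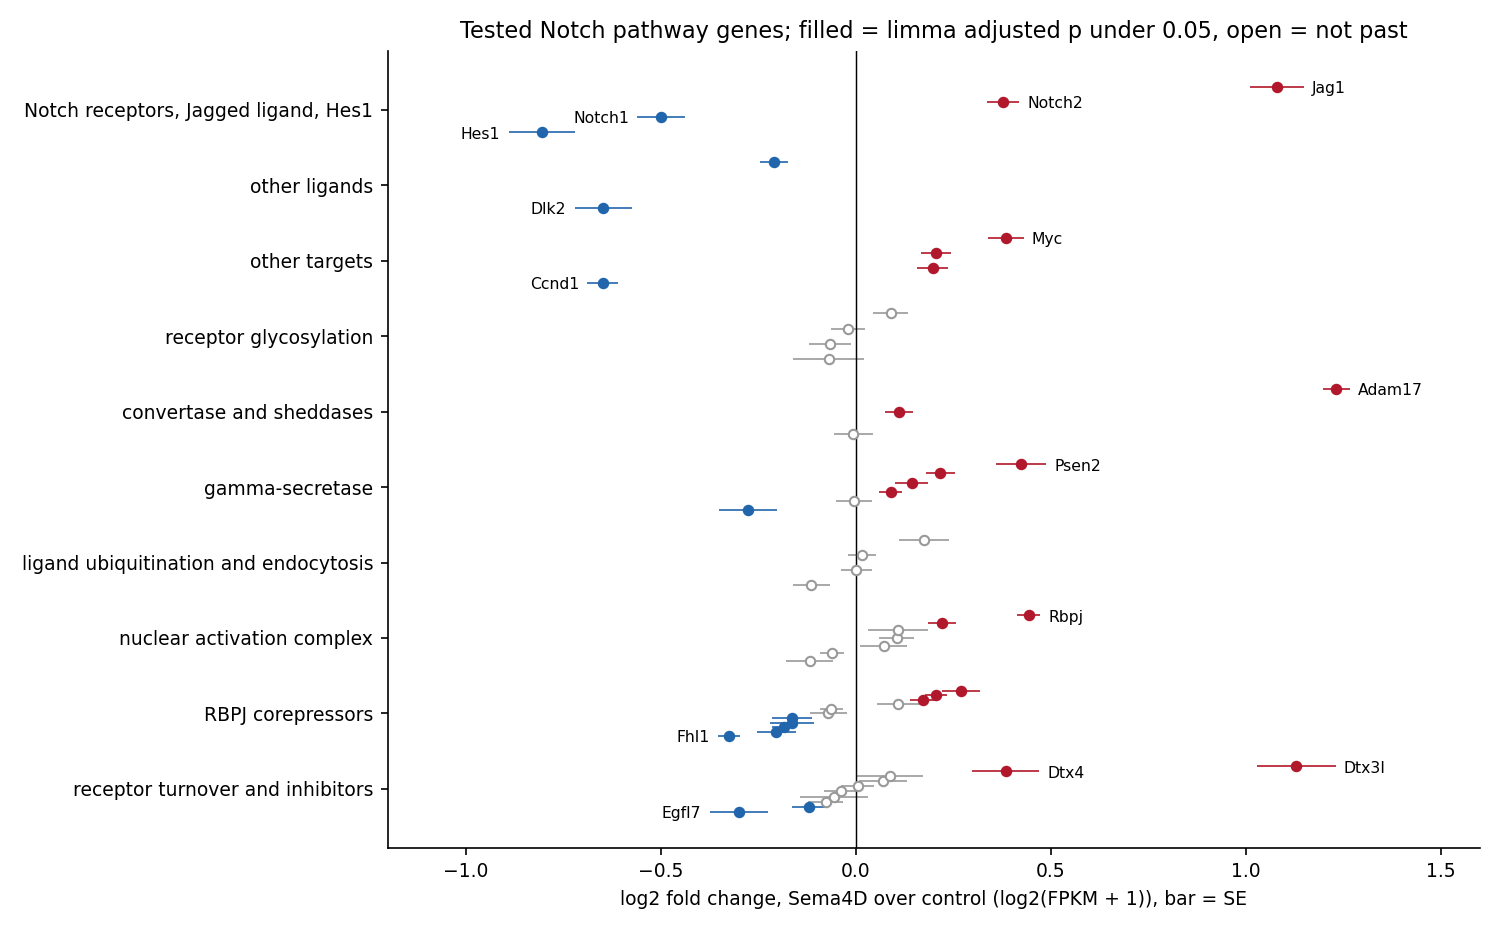
Log2 fold change of Sema4D over control, with SE, for the 4 tested receptor, ligand and target genes (top row) and the 51 tested genes of 9 pathway lists; filled points passed limma at an adjusted p under 0.05 and open points did not, and genes past 0.3 in size are named. Adam17, Dtx3l and Jag1 lie farthest to the right and Hes1 farthest to the left.

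By the shape of its 6 values, each tested gene had close neighbours outside the pathway, measured as the root mean square difference between centred log2(FPKM + 1) profiles over the 6 libraries. Nearest to Jag1 were St3gal1 (0.0454), Cgnl1 (0.0474) and Ehd3 (0.0532). Nearest to Notch2 were Plec (0.00684), Bcr (0.0133) and Bin1 (0.018), and nearest to Notch1 were Arhgef1 (0.0233), Kank1 (0.0259) and Creb3l2 (0.0261). Nearest to Hes1 were Hoxa9 (0.0594), Galnt5 (0.061) and Tspyl4 (0.0613). A shared direction follows from this choice.

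Notch genes are also expressed by other cells that a cartilage culture could hold, and in bulk libraries fewer cells of a type and less RNA per cell cannot be told apart. All 8 endothelial markers, Pecam1 and Cdh5 among them, were at most 0.174 FPKM in every library, summing to 0.250 to 0.390 FPKM in Sema4D and 0.196 to 0.379 FPKM in control libraries. Of 8 mural cell markers, which sit beside Notch3 in vessels, 5 were tested, 1 rose and 3 fell (20% and 60%, against 24.5% and 22.2% of all tested genes). Acta2 rose (log2 fold change 0.85), while Mcam (-0.74), Cspg4 (-0.47) and Tagln (-0.30) fell. The mural list summed to 189 to 197 FPKM in Sema4D and 185 to 199 FPKM in control libraries, a sum that covers these opposite moves. Nearly all of that sum came from Cspg4, Acta2, Pdgfrb and Tagln, while Rgs5, Myh11 and Des were under 1 FPKM in every library. With no filter Myh11 (limma adjusted p = 0.00296) and Des (0.0422) were also lower, and Rgs5 did not pass (0.515). With a pseudocount of 0.1 as well, Des no longer passed (0.0759). Whether the reads of this list came from mural cells was not tested. Of 8 macrophage markers 3 were tested and 2 fell, Lyz2 (-0.46) and Tyrobp (-0.70). That is 66.7% of the 3, against 22.2% of all tested genes. The macrophage list summed to 20.7 to 23.5 FPKM in Sema4D and 23.7 to 30.7 FPKM in control libraries, with Ptprc at most 0.127 FPKM. Among markers not tested, Adgre1 had 0.750, 0.706 and 0.563 FPKM in Sema4D libraries and 0.268, 0.264 and 0.0784 FPKM in control libraries. Fcer1g had 0.875, 0.938 and 1.63 FPKM in Sema4D libraries and 0.166, 0 and 0.536 FPKM in control libraries. With no filter Adgre1 (limma adjusted p = 0.00352) and Fcer1g (0.0168) were higher, while Ptprc, Csf1r and Mrc1 did not pass. The list thus did not move one way. The part of the macrophage markers in the lower Hes1 and Notch1 values was not tested.

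**Figure D4:**
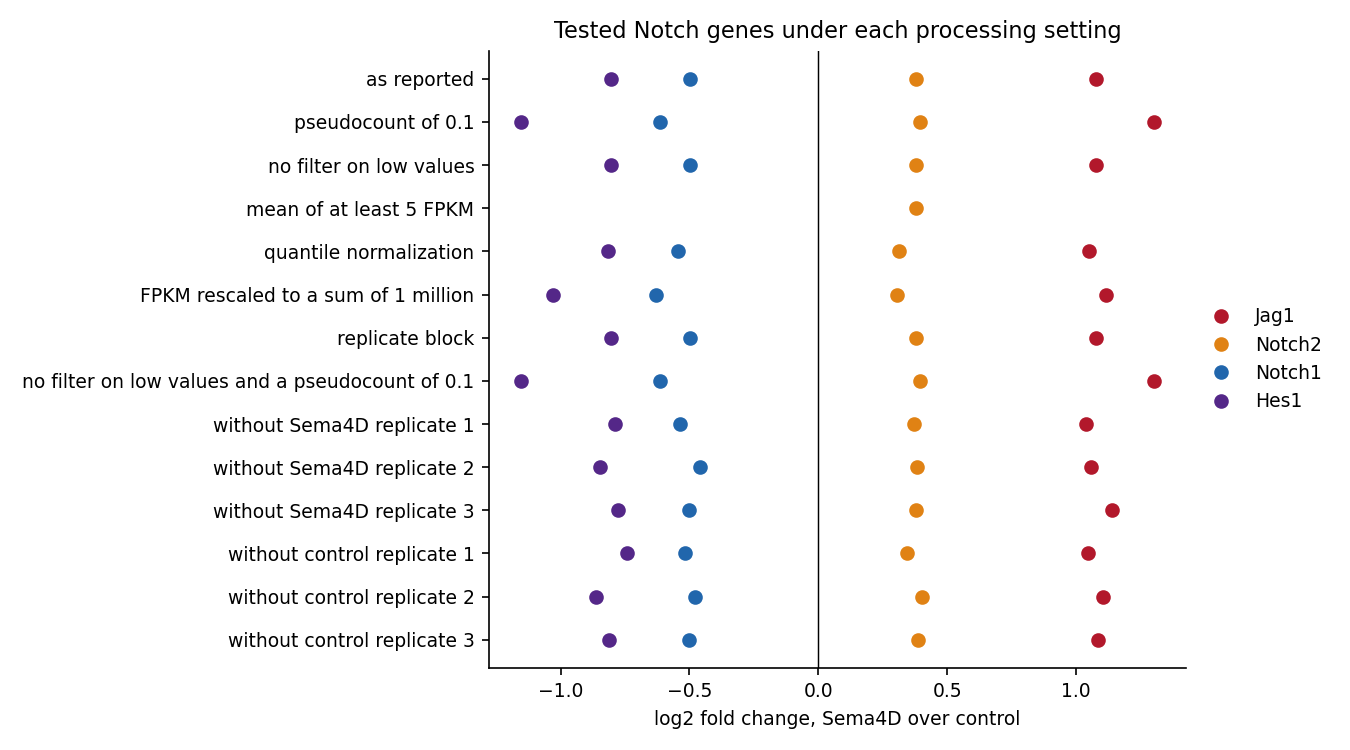
Log2 fold change of Sema4D over control for Jag1, Notch2, Notch1 and Hes1 (x axis) as reported and under 13 alternative settings (rows); each point is 1 fit. Jag1 and Notch2 stay right of 0 and Notch1 and Hes1 left of it in every setting that tested them, and only Notch2 reached a mean of 5 FPKM.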

How the data were processed

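The authors deposited FPKM for 24346 gene symbols, 1 column per library. The submitters' processing notes name Cufflinks 2.2.1, TopHat2 2.0.13, SAMtools 0.1.19, Bowtie2 2.2.3 and the build mm10, without saying what each did. The annotation, filters, strand setting and scaling are not given in the sources used here.

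Since FPKM are normalized values, count models were not used. On log2(FPKM + 1), limma 3.58.1 (eBayes with a trend, two-sided, no replicate block; R 4.3.3) tested the 11603 genes averaging 1 FPKM or more, with Benjamini-Hochberg adjustment over all of them. Fold changes on this scale understate changes of low genes. The fit was tested on simulated data for this comparison with 11603 genes, 200 of them changed: 62% of genes changed 1.25-fold, 92% of those changed 1.5-fold and 100% of those changed 2-fold were recovered, and 0.0702% of unchanged genes were called. The simulation had independent normal scatter, no scaling shift between groups and far fewer changed genes than the 46.7% called here. Its rates therefore do not give the share of false or missed calls in these libraries.

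Depth came from 1681 genes with 1 GENCODE M21 transcript over 2000 nucleotides, of whose low values 76.8% to 83.7% lay within 0.15 of a whole fragment. Fragment numbers per gene use the longest GENCODE transcript and are approximate. At most 0.293% of tested genes had identical values in any pair of libraries, so all 6 were counted. Positions and promoters are RefSeq's for GRCm38.p6, with promoters for 7 of the 10 genes. Python 3.11.15 was used for figures and sequences.

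The 10 genes and all lists were chosen with earlier results of these data known. Named from each pathway list were up to 3 genes past the threshold with the smallest p, and all genes of lists with 3 or fewer tested members. An item that this rule names is not reported here. For each tested Notch gene, the 3 nearest profiles were named, leaving out members, small RNAs, pseudogenes and predicted genes. Other list members were named after their values were seen. Alternatives were another pseudocount, other filters, quantile normalization, rescaling to a common FPKM sum, a replicate block and leaving out each library. No filter together with a pseudocount of 0.1 was added after seeing the data.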

Additional observations from a re-analysis of the deposited data

How the results depend on the processing

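Jag1, Notch2, Notch1 and Hes1 kept their direction and an adjusted p under 0.05 (limma) in every setting that tested them, with log2 fold changes of 1.04 to 1.30 for Jag1, 0.31 to 0.40 for Notch2, -0.63 to -0.46 for Notch1 and -1.15 to -0.74 for Hes1. A mean of at least 5 FPKM left Notch2 alone to be tested, so 1 of the 10 genes was higher and 0 lower, because fewer genes were tested. Without 1 library at a time 2471 to 2635 of all genes were higher and 2207 to 2327 lower, and 13 to 15 pathway genes were higher and 8 to 10 lower. After rescaling to a common FPKM sum 2005 genes were higher and 3802 lower, and pathway genes lower were 17 in place of 11; after quantile normalization 2167 were higher and 3415 lower. The median of all genes was -0.07 and -0.05 on the log2 scale under these scalings, against 0.01 as deposited. With a replicate block 2638 genes were higher and 2356 lower, 2 of the 10 genes were higher and 2 lower, and 15 pathway genes were higher and 9 lower. Deviations of same-numbered libraries correlated at 0.14, -0.0809 and -0.0544, and not every library matched its own number best, so the numbers were not taken as pairs. Counts of short lists moved by over 1.5 times in places: sheddase and convertase rises were 1 in place of 2 under both scalings, the block and without any library but control replicate 1; gamma-secretase rises were 2 in place of 4 under both scalings and without Sema4D replicate 1 or 3 or control replicate 1, and its 1 fall was 0 with a mean of at least 5 FPKM or without control replicate 1; turnover falls were 1 in place of 2 with no filter (at either pseudocount), a mean of at least 5 FPKM, the block, or without control replicate 2 or 3 or any Sema4D library, and, with that mean, turnover rises were 0 in place of 2 and falls of other ligands 1 in place of 2. Among genes for ubiquitination and endocytosis of ligands, rises were 1 in place of 0 with a pseudocount of 0.1, no filter (at either pseudocount), a mean of at least 5 FPKM, the block or without Sema4D replicate 2, and falls were 1 in place of 0 with no filter, under both scalings or without control replicate 1. Glycosylation falls were 1 in place of 0 with no filter (at either pseudocount). Nuclear complex falls were 1 after quantile normalization and 2 after rescaling in place of 0. The cause of these shifts was not tested. Depth limits Notch4, Heyl, Jag2 and Dll1, each at under 20 estimated fragments per library.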
